A study of Mus musculus with 10 samples.

Results

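The genes examined were 9 chemokine ligands, Ccl2, Ccl5, Ccl7, Ccl9, Ccl20, Cxcl1, Cxcl10, Cxcl12 and Cxcl16, measured in 5 mouse mammary tumour cell lines. The list was drawn up with earlier results of these data known, so its shares set beside those of all genes are descriptive only. Its probe sets were taken by symbol: every probe set (a group of short oligonucleotides that reads one transcript) paired with one of these symbols and no other was taken, which gave 15 of the 45101 probe sets on the array. All 9 genes had at least 1 probe set above the filter on low values, among 14840 genes tested. Line E is epithelial and came from a mammary adenocarcinoma of a female mouse of strain FVB/N-TgN(MMTVneu)202Mul, in which the mouse mammary tumour virus promoter drives the neu oncogene. The other lines, M1 to M4, are mesenchymal, and each was grown from a relapsed tumour in a female FVB/N mouse that had been injected with E cells; each is 1 line, and the mouse hosts shared the FVB/N background. Each line was hybridised on 2 arrays after growth in serum-containing RPMI medium. There was 1 epithelial line. Nothing in the labels tells whether both arrays of a line stem from different dishes of cells. The p-values therefore measure only a spread between arrays of a line, drawn in part from other genes, and this spread may be technical.

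Chemokines are small secreted proteins that guide cells along a concentration gradient by binding G protein-coupled receptors. They are grouped by the spacing of their first cysteines into the CC ligands (Ccl genes) and the CXC ligands (Cxcl genes). In the mammary gland and its tumours they recruit monocytes, neutrophils and lymphocytes, and some act on the tumour cells themselves. Many chemokine genes are induced through the transcription factor NF-kappaB, which binds the kappaB element, and some also through interferon-activated factors.

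The promoters of 5 of the 9 members were matched by symbol in the RefSeq table used (build GRCm38.p6); those of Ccl2, Ccl5, Ccl7 and Cxcl16 are not used here. Those of Cxcl10, Cxcl1 and Ccl20 are shown because each holds a kappaB match while the 3 genes had 3 different patterns across the lines. Each sequence gives the 250 bases before the gene's start, 5′ to 3′ on the gene's own strand, and capitals mark matches to the motifs searched on both strands: the kappaB consensus, the interferon element core (GAAA, any 2 bases, GAAA) and the AP-1 element TGANTCA. The windows are chr5:92348890-92349139 on the minus strand for Cxcl10, chr5:90890995-90891244 on the plus strand for Cxcl1 and chr1:83116516-83116765 on the plus strand for Ccl20.
Cxcl10: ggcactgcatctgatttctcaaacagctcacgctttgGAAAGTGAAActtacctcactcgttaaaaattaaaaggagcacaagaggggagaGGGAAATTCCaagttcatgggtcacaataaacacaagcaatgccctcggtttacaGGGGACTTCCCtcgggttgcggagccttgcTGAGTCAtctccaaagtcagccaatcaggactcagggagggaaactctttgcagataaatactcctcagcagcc
Cxcl1: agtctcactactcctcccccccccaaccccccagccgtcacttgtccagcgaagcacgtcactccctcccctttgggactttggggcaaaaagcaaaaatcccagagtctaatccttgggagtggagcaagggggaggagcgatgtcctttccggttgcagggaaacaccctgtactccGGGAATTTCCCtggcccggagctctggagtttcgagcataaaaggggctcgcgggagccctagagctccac
Ccl20: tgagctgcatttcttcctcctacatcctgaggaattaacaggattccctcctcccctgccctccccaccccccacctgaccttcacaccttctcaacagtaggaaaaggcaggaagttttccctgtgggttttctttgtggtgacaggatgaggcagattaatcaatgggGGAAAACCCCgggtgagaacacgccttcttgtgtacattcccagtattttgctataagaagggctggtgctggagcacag
In Cxcl10 the kappaB consensus was matched from position -159 to -150 and by a pair of overlapping windows from -104 to -94, counted back from the gene's start. The interferon core of Cxcl10 lay at -213 to -204 and its AP-1 match at -74 to -68. In Cxcl1 a pair of overlapping kappaB windows, 1 on each strand, ran from -71 to -61, and in Ccl20 the single match ran from -80 to -71. Ccl9 held 1 kappaB match (-35 to -26) and 1 AP-1 match (-53 to -47), and the window of Cxcl12 held none of the 3 motifs. Among all 32851 promoter windows of the same length, 7.25% held the kappaB consensus, 2.98% the interferon core and 6.75% the AP-1 element. These matches describe the letters of the reference windows, and binding was not measured.

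The 40th percentile of an array's signals, used below as the mark of a low value, ran from 14.1 to 21.3. Both arrays of a line had a correlation of 0.992 to 0.993 over all probe sets, compared with 0.873 to 0.976 between lines. The markers of cell state were read against the labels. Epcam, an epithelial adhesion molecule, read 10675 and 10046 on the E arrays and 1.7 to 4.5 on the M arrays, while S100a4, a gene of motile mesenchymal cells, read 8.7 and 11.2 in E but 10128 to 13881 on M arrays. Vim, the mesenchymal intermediate filament gene, read 9308 and 9980 in E already and 7324 to 16576 on the M arrays. Krt8, a luminal keratin, had mean signals of 7959 in E, 57.1 in M1 and 4538 to 7947 in M2, M3 and M4, and Krt18, its partner keratin, 12611 in E, 549 in M1 and 5 to 14.2 in M2, M3 and M4.

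Of the 9 ligands, 5 rose and 2 fell when the mean of the 4 M lines was set against E. A gene was called, here written as rose or fell, when limma gave it a p under 0.05 after Benjamini-Hochberg adjustment over the 14840 genes and its change was at least 2-fold on the scale log2(signal + 32). By this rule 7.34% of all genes rose and 14.5% fell. The median change was 1.22 over the 9 ligands and -0.21 over all genes tested. Ccl2, Ccl7, Cxcl10, Cxcl12 and Cxcl16 rose, Ccl5 and Ccl20 fell, and Ccl9 and Cxcl1 were not called. Under quantile normalization the median of all genes was 0.04 in place of -0.21, 1433 genes were higher and 1305 lower in place of 1089 and 2148, the 5 rises of the ligands were still called, and Ccl5 was not.

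**Figure D1:**
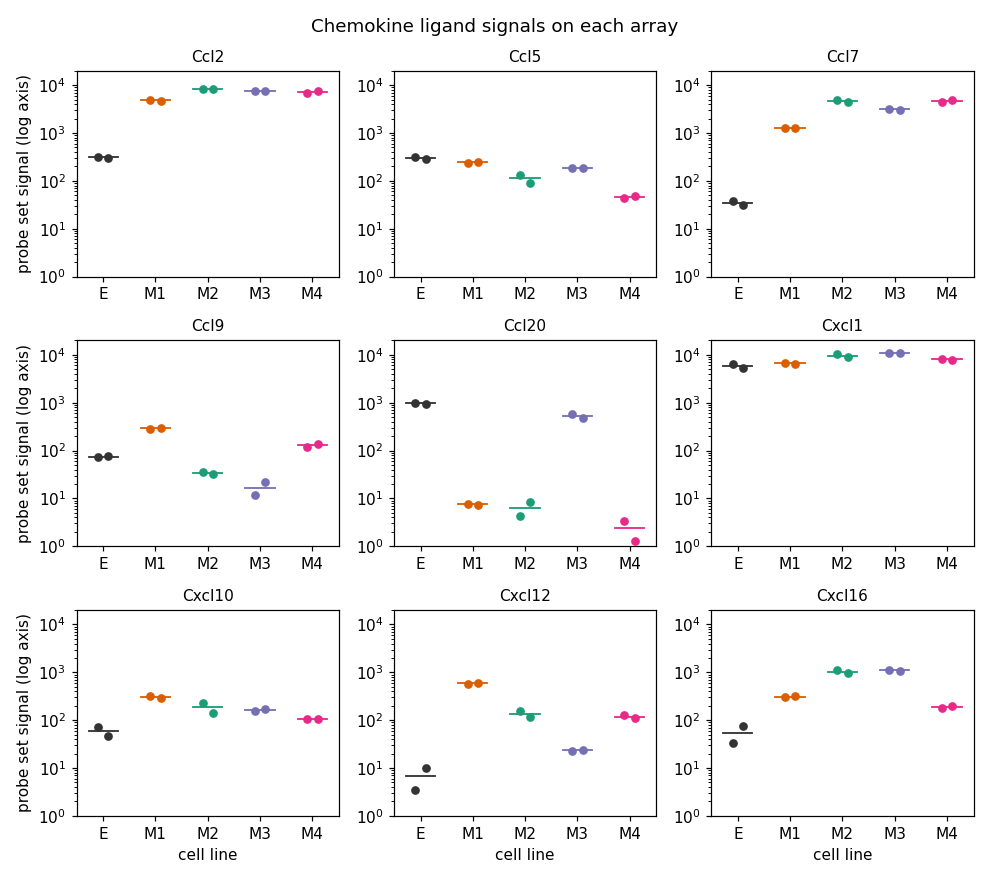
Probe set signal (log axis) of each chemokine ligand on the 10 arrays, 2 points per cell line with a bar at their mean, for the probe set with the highest mean of each gene. Ccl2 and Ccl7 are higher on all 8 M arrays than on the E arrays, Ccl20 is low in M1, M2 and M4 but not in M3, and Cxcl12 is highest in M1 (573 and 599.6) and, among the M lines, lowest in M3 (22.4 and 24.3).

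Ccl2 and Ccl7 attract monocytes, both through the receptor Ccr2. The Ccl2 signals were 316 and 304 in E, 4883 and 4735 in M1, 8496 and 8418 in M2, 7699 and 7451 in M3, and 7000.4 and 7470.3 in M4. Every M array was above both E arrays, and the M1 arrays were the lowest of the M lines. Ccl2 rose by 4.33 ± 0.08 (SE) on the log2 scale, or 20.2-fold, in the mean of the M lines (adjusted p = 5.21e-40); changes and differences below are on the same log2 scale. The 4 lines were close to each other, with M1 changed by 3.82, M2 by 4.63, M3 by 4.47 and M4 by 4.41. M2 and M3 did not differ in limma (0.16 ± 0.11, adjusted p = 0.284), though both M2 arrays were above both M3 arrays. The SE is moderated, that is, drawn in part from the spread of other genes. Where lines are said below not to differ beyond their spread, this moderated spread is meant. M3 and M4 did not differ either (0.07 ± 0.11, adjusted p = 0.697), while M4 exceeded M1 by 0.59 ± 0.11 (adjusted p = 1.26e-05), under the 2-fold limit.

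Ccl7 followed a like course across the lines. Its signals were 37.9 and 31 in E, 1292 and 1250.1 in M1, 4926 and 4463 in M2, 3230 and 3001 in M3, and 4496 and 4866 in M4. No M array came near the E arrays, and M1 again stood below the other lines. The change was 5.54 ± 0.11 in the mean contrast (adjusted p = 4.25e-40), with 4.30 ± 0.14 in M1 and 6.15 ± 0.14 in both M2 and M4. The order was M2, M4, M3, M1, E; M2 and M4 did not differ beyond their spread (adjusted p = 0.99), and M3 exceeded M1 by 1.27 ± 0.14 (adjusted p = 5.74e-11). When only the 5 line means were fitted, which left 3 residual degrees of freedom, Ccl2 (adjusted p = 0.000445) and Ccl7 (adjusted p = 0.00332) were the members called, beside 10.6% of all genes.

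Cxcl16, a ligand made as a membrane-anchored protein and shed by the protease ADAM10, binds Cxcr6 on T cells. Its signals were 32.6 and 74.3 in E, 299.7 and 324 in M1, 1096 and 947 in M2, 1129 and 1081 in M3, and 176 and 196 in M4. All 8 M arrays exceeded the E arrays, and M2 and M3 formed a high pair. Cxcl16 rose by 2.72 ± 0.14 (adjusted p = 1.6e-22), by 3.66 in M2, 3.78 in M3, 2.05 in M1 and 1.39 in M4. M3 and M2 did not differ beyond their spread (0.11 ± 0.18, adjusted p = 0.694), M2 exceeded M1 by 1.61 ± 0.18 (adjusted p = 4.6e-10) and M1 exceeded M4 by 0.66 ± 0.18 (adjusted p = 0.00227). Its other probe set, whose suffix marks probes able to match more than one transcript, read 1.5 and 0.6 in E and between 121 and 900.2 on M arrays, a change of 3.71 ± 0.13. The adjusted p on line means was 0.129. Ccl2, Ccl7 and Cxcl16 were the 3 members called higher in each of the 4 lines, beside 4.23% of all genes; with a pseudocount 4 times larger Cxcl16 was not called in M4 (0.80).

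Cxcl12 retains haematopoietic cells in bone marrow and is made mainly by stromal cells. It read 3.4 and 10.2 in E, below the 40th percentile on both arrays. The M1 arrays read 573 and 599.6, those of M2 159 and 114, those of M3 22.4 and 24.3, and those of M4 127 and 112. M1 stood apart at the top and M3 was just above the mark of a low value. Cxcl12 rose by 2.15 ± 0.14 (adjusted p = 8.96e-19), by 4.00 ± 0.18 in M1, 2.11 in M2 and 1.97 in M4, while its change in M3 was 0.52 ± 0.18 (adjusted p = 0.0101), below the 2-fold limit. M1 exceeded M2 by 1.89 ± 0.18 (adjusted p = 3.27e-12), and M2 and M4 did not differ beyond their spread (0.14 ± 0.18, adjusted p = 0.593). Of its other probe sets, 1 had M1 (3.48 ± 0.17) above M2 (1.25) and M4 (1.38), with a change of 0.00 ± 0.17 in M3, and the remaining one was below the 40th percentile on all 10 arrays. The mean change was 1.10 with the larger pseudocount, 3.23 with one of 8 (where M3, at 1.12, was called), 1.29 with values below 64 set to 64, and the call was lost on line means (adjusted p = 0.29). The calls in M2 (0.97) and M4 (0.88) were lost with the larger pseudocount, and that in M4 also with the floor of 64 (0.90).

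Cxcl10, an interferon-inducible attractant of T cells that binds Cxcr3, was lowest in E. Its signals were 71.4 and 47 in E, 314 and 297 in M1, 225 and 145 in M2, 154 and 175 in M3, and 106 and 106 in M4. Every M array exceeded both E arrays, and the M2 arrays spanned those of M3. It rose by 1.22 ± 0.14 (adjusted p = 2.23e-10), with changes of 1.90 in M1, 1.24 in M2 and 1.12 in M3, and 0.61 ± 0.18 in M4 (adjusted p = 0.00306), which was below the 2-fold limit. M2 and M3 did not differ beyond their spread (0.11 ± 0.18, adjusted p = 0.697). The call was lost with the larger pseudocount (0.73), without line M1 (0.988) and on line means (adjusted p = 0.187); the M4 change was called after quantile normalization (1.09) and median centring (1.06). The call in M2 was lost with the larger pseudocount (0.73) and without M2 replicate 1 (0.97), and that in M3 with the larger pseudocount (0.65) and without E replicate 2 (0.93).

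Cxcl1, a neutrophil attractant that binds Cxcr2, was measured far above the mark of a low value in every line. The probe set with the highest mean read 6434 and 5245 in E, 6767 and 6442 in M1, 10195 and 8961 in M2, 11040 and 11086 in M3, and 8222 and 7870 in M4. The M1 and E arrays lay close together and M3 was the highest line. Cxcl1 differed by 0.57 ± 0.07 in the mean contrast (adjusted p = 3.19e-09), below the 2-fold limit, with 0.93 ± 0.09 in M3 and 0.18 ± 0.09 in M1 (adjusted p = 0.101). Its M3 change was called after quantile normalization (1.15), median centring (1.33), scaling to the hybridization controls (1.25), with the mean of probe sets (1.05) or without E replicate 1 (1.07). Its other probe sets gave 0.56 ± 0.07 and 0.97 ± 0.10. The former was not called in any line (0.75 in M2, 0.94 in M3), and the latter was called in M2 (1.31) and M3 (1.28). The suffixes of the latter and of the representative probe set mark probes able to match more than 1 transcript. In the fit over all probe sets, 6.05% of them rose and 13.2% fell. M3 and M2 did not differ beyond their spread by the representative probe set (0.21 ± 0.09, adjusted p = 0.0828), nor did M1 and E. In both pairs, however, the arrays of the lines did not overlap.

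Ccl20, the ligand of Ccr6 and a product of epithelial cells at mucosal surfaces, was measured well above the background in E and M3 and was at the background in M1, M2 and M4. Its signals were 996 and 949.5 in E, 7.5 and 7.4 in M1, 4.3 and 8.4 in M2, 585 and 478 in M3, and 3.4 and 1.3 in M4. The M3 arrays lay below those of E, and the other 6 M arrays were below the 40th percentile. Ccl20 fell by 3.77 ± 0.14 in the mean contrast (adjusted p = 7.55e-29). That mean joined changes of -4.67 ± 0.17 in M1, -4.71 ± 0.17 in M2 and -4.87 ± 0.17 in M4 with one of -0.84 ± 0.17 in M3 (adjusted p = 3.87e-05), which was below the 2-fold limit. M3 exceeded M1 by 3.83 ± 0.17 (adjusted p = 8.54e-24), and M1, M2 and M4 did not differ beyond their spread (adjusted p from 0.386 to 0.903). The M4 arrays were below those of M1 and M2, all at background signals. Without line M3 the mean contrast fell by 4.75, and on line means the call was lost (adjusted p = 0.177). With the larger pseudocount it fell by 2.47. In M3, where Ccl20 was high, the 4 epithelial markers had mean signals of 5529 for Krt8 (7959 in E), 71.4 for Cdh1 (3501 in E), 6.8 for Krt18 (12611 in E) and 3.15 for Epcam (10360 in E). Of these, Cdh1 was below its M3 level in the other M lines (5.5 to 41.7). Krt8 was higher in M2 (7947) than in M3, and Krt18 was higher in M1 (549) and M2 (14.2). Epcam was at background signals in the other M lines too (2.25 to 3.55). The part of these genes in the result was not tested.

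Ccl5, which attracts T cells and monocytes, was highest in E. It read 319 and 284 in E, 241 and 245 in M1, 135 and 91.9 in M2, 184 and 183 in M3, and 43.9 and 47.8 in M4. No M array reached the E arrays, and M4 was the lowest line. Ccl5 fell by 1.05 ± 0.14 (adjusted p = 2.76e-09), close to the fold limit, by 2.10 ± 0.17 in M4 and by 1.21 ± 0.17 in M2. The changes in M1 (-0.28 ± 0.17, adjusted p = 0.188) and M3 (-0.63 ± 0.17, adjusted p = 0.00139) were not called. The mean contrast was not called after quantile normalization (-0.67), median centring (-0.74) or scaling to the hybridization controls (-0.79), nor with the larger pseudocount (-0.70), without E replicate 1 (-0.979), without line M4 (-0.71) or on line means (adjusted p = 0.382). The call in M2 was lost after quantile normalization (-0.973), hybridization scaling (-0.971), with the larger pseudocount (-0.84) and, just under the 2-fold limit, without M2 replicate 2; the M4 change was -1.30 with the larger pseudocount. M4 was below M2, its neighbour in the order, by 0.88 ± 0.17 (adjusted p = 4.79e-05).

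Ccl9, a mouse ligand of Ccr1 that attracts myeloid cells, went in opposite directions in different lines. It read 72.7 and 75.1 in E, 278 and 300.3 in M1, 35.7 and 31.9 in M2, 11.8 and 21.6 in M3, and 120.2 and 139 in M4. M1 and M4 were above E and M2 and M3 below it, with no overlap between any of these lines and E. Ccl9 rose by 1.60 ± 0.17 in M1 (adjusted p = 4.93e-11) and fell by 1.13 ± 0.17 in M3 (adjusted p = 2.3e-07); the changes in M4 (0.61 ± 0.17) and M2 (-0.69 ± 0.17) were below the 2-fold limit. Their mean was 0.10 ± 0.14 (adjusted p = 0.563), beside a difference of 2.73 ± 0.17 between M1 and M3 (adjusted p = 4.62e-18), and it was below 0 with a pseudocount of 8 (-0.031), without line M1 (-0.402) and without line M4 (-0.072). Of all genes tested, 0.263% were called higher in 1 M line and lower in another. The M3 call was lost after quantile normalization (-0.84), median centring (-0.73), scaling to the hybridization controls (-0.93), the larger pseudocount (-0.48), values below 64 set to 64 (-0.21) and without M3 replicate 1 (-0.98). The M4 change was called after quantile normalization (1.14), median centring (1.06) and scaling to the hybridization controls (1.01). The other probe set gave 1.33 ± 0.18 in M1 and -0.92 ± 0.18 in M3, and the latter was not called.

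**Figure D2:**
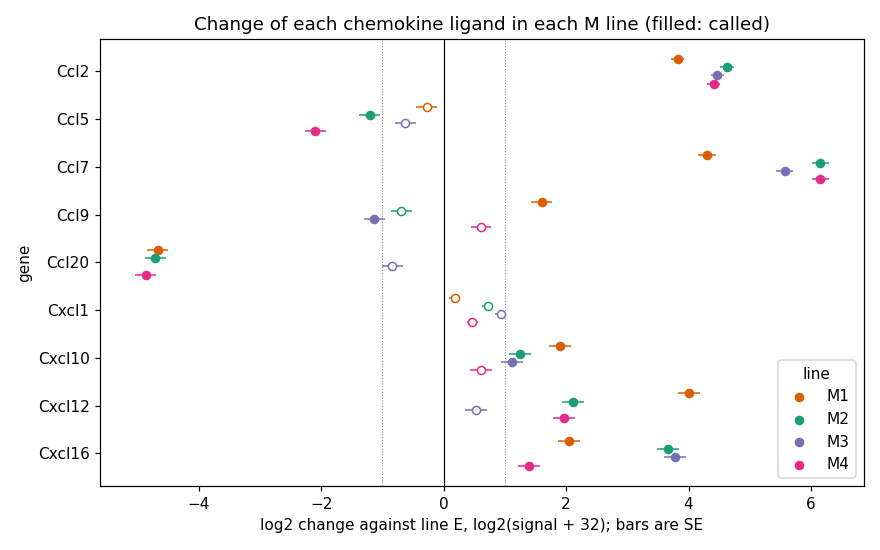
Log2 change of each chemokine ligand in each M line against E on the scale log2(signal + 32), with bars for the SE. Filled points were called, and dotted lines mark the 2-fold limit; Ccl9 points lie on both sides of 0, from 1.60 in M1 to -1.13 in M3, and the Ccl20 point of M3 (-0.84) stands apart from the other 3 lines.

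Read by line, M1 had 6 ligands higher and 1 lower, where 8.6% of all genes were higher and 12.5% lower. M2 had 5 higher and 2 lower (8.58% and 11.8% of all genes), M3 had 4 higher and 1 lower (7.7% and 19.8%), and M4 had 4 higher and 2 lower (6.65% and 20.1%). Under each of the other 3 scalings (quantile, median and hybridization controls), 5 were higher in M3 and 6 in M4. These 4 comparisons share the E arrays. M1 carried the highest Cxcl12, Cxcl10 and Ccl9 signals among the M lines and the lowest Ccl2 and Ccl7. M3 carried the highest Ccl20, Cxcl1 and Cxcl16 by line mean, and the lowest Cxcl12 and Ccl9. M4 had the lowest Ccl5, Cxcl10 and Cxcl16.

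The M lines were then compared with each other. A moderated F test of the 4 M lines alone, with a 2-fold range required, called 7 of the 9 ligands, beside 22.4% of all genes. Ccl2 and Cxcl1 were the members without a 2-fold range, at 0.81 and 0.74; after quantile normalization Ccl2 was called (1.01) and Cxcl10 was not (0.96). The range was widest for Ccl20 (4.03), Cxcl12 (3.48), Ccl9 (2.73) and Cxcl16 (2.39). This order depends on the pseudocount: with the larger one the widest were Ccl20 (2.34), Cxcl12 (2.24), Cxcl16 (1.98) and Ccl7 (1.78), and Ccl9 was at 1.53. Over the 6 pairs of M lines, 22 of 54 differences were called, against 8.07% of the differences over all genes. M1 and M2 (4.54% of all genes called between them) differed in Ccl7 (-1.86 ± 0.14) and Cxcl16 (-1.61), which were lower in M1, and in Ccl9 (2.29) and Cxcl12 (1.89), which were higher there. M3 and M4 (10.3%) differed in Ccl20 (4.03), Cxcl16 (2.39) and Ccl5 (1.47), higher in M3, and in Ccl9 (-1.74) and Cxcl12 (-1.45), lower in M3.

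**Figure D3:**
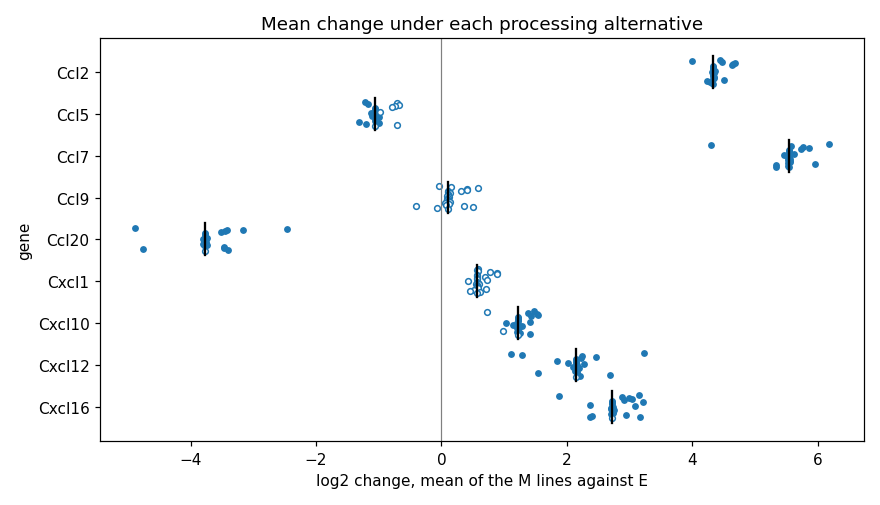
Mean log2 change of each ligand over the M lines, relative to E, under 26 alternatives (points, open where not called) with a black bar at the reported value. Ccl2 stayed between 4.00 and 4.68 and Ccl7 between 4.30 and 6.18, both called throughout, while Ccl5 (-1.31 to -0.67) crossed the fold limit and Ccl9 (-0.40 to 0.59) lay on both sides of 0.

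Other chemokine ligands were taken as a list of 26 symbols, of which 22 had a gene tested. Of these, 4 rose and 2 fell, beside 7.34% and 14.5% of all genes. Their median change was 0.19, against -0.21 over all genes. Cxcl5, a neutrophil attractant that like Cxcl1 binds Cxcr2, read 702 and 552 in E, lay between 6652 and 9606 on the M arrays, and rose by 3.61 ± 0.09. Ccl8, a monocyte attractant, read 9 and 32.3 in E, 281 and 231 in M2, and 329 and 325 in M4. It rose by 1.66 ± 0.15; its change was 0.39 in M1 and 0.97 in M3, below the limit, and the call was lost with the larger pseudocount (0.89) and on line means (adjusted p = 0.32). Pf4 (-1.28 ± 0.17) and Ccl28 (-1.13 ± 0.14) fell from signals of 87.6 to 114 in E; Ccl28 was not called after quantile normalization (-0.80), nor by its other probe set (-0.29), and Pf4 not after median centring (-0.97), with the larger pseudocount (-0.58) or with values below 64 set to 64 (-0.55). The other risers, Ppbp (1.12) and Cxcl11 (1.08), were named after their values were seen. Cxcl11, like Cxcl10 an interferon-inducible Cxcr3 ligand, read 133 and 135 in M2 and 193 and 220 in M3 but at most 29 in E, M1 and M4; its highest line was M3 where that of Cxcl10 was M1. RefSeq lists Cxcl11 as a transcribed pseudogene in its reference strain.

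**Figure D4:**
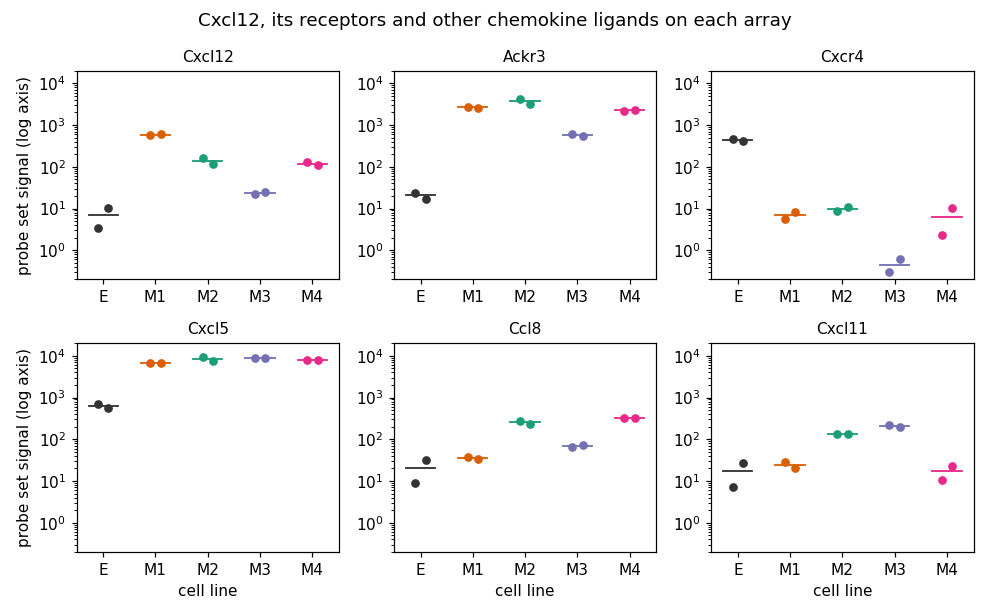
Probe set signal (log axis) on the 10 arrays, 2 points per cell line with a bar at their mean, for Cxcl12, its receptor genes Ackr3 and Cxcr4, and the ligands Cxcl5, Ccl8 and Cxcl11. Ackr3 is at 554 or more and Cxcr4 at 10.9 or less on all M arrays, the reverse of E, and Ccl8 and Cxcl11 are raised in different pairs of lines.

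The receptors were examined because each ligand acts through one or a few of them. Of 23 receptor genes listed, 16 had a gene tested. Of these, 1 rose and 2 fell, about the shares of all genes (7.34% and 14.5%). Their median change was 0.10, against -0.21 over all genes. The pair of Cxcl12 receptors moved in opposite directions. Cxcr4, the signalling receptor, read 458 and 422 in E and 0.3 to 10.9 on the M arrays, and fell by 3.65 ± 0.15 (adjusted p = 2.77e-26). All 8 M arrays were below the 40th percentile, so the size of this fall is set by the pseudocount, at -5.08 with one of 8 and -2.08 with the larger one. Ackr3, the atypical receptor that takes up and removes Cxcl12, read 24 and 17.3 in E, 2701 and 2575 in M1, 4182 and 3268 in M2, 601 and 554 in M3, and 2197 and 2289 in M4, and rose by 5.20 ± 0.12 (adjusted p = 3.6e-37). The size of this rise also depends on the pseudocount, at 6.06 with one of 8 and 3.79 with the larger one. As for Cxcl12, M3 was the lowest of the M lines for Ackr3. The suffix of the Ackr3 probe set marks probes able to match several transcripts. Ccrl2, an atypical receptor, fell by 3.18 ± 0.14, from 577 and 583 in E to 23.4 to 50.8, and by 2.11 with the larger pseudocount.

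For the other ligands, the matching receptors were near the background. Ccr2, the receptor of Ccl2 and Ccl7, had line means from 7.8 to 31.6, Ccr6, the receptor of Ccl20, from 22 to 31.4, and Cxcr6, the receptor of Cxcl16, from 15 to 21.8. Their mean changes were 0.23 for Ccr2, 0.13 for Ccr6 and 0.13 for Cxcr6, not called in limma (adjusted p from 0.295 to 0.521). Ccr1 and Cxcr3 were likewise low except in 1 line each: Ccr1 had a mean of 168 in M4 and at most 12.4 elsewhere, and Cxcr3 a mean of 153 in M2 and at most 41.2 elsewhere. The probe sets of Cxcr2 did not pass the filter on low values.

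Genes that shed, cleave or bind chemokines were taken as a list of 15, of which 13 were tested. Of these, 4 rose and 2 fell, beside 7.34% and 14.5% of all genes. Their median change was 0.42, against -0.21 over all genes. Adam10, the protease that sheds Cxcl16, had mean signals of 3611 in E and from 1672 to 3205 in M lines. It was not called in the mean contrast (-0.65 ± 0.10). In M4 it was called lower (-1.09), where 20.1% of all genes were called lower and their median change was -0.35. M4 was also the line with the lowest Cxcl16 of the 4, and a link was not tested. Mmp14, a membrane protease (3.10 ± 0.11), Gpc1, a heparan sulfate proteoglycan (3.35 ± 0.13), and Tnfaip6, a hyaluronan-binding protein (2.69 ± 0.14), rose most, with Tnfaip6 at 1.53 under the larger pseudocount. Sdc4, another heparan sulfate proteoglycan, fell by 2.20 ± 0.12 (-1.41 with the mean of probe sets). Mmp9 rose by 2.02 ± 0.16 (0.52 in M4, not called) and Hs6st1 fell by 2.10 ± 0.14, and both were named after their values were seen.

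NF-kappaB and interferon signalling genes were listed because they are known regulators of the members. Of 22 NF-kappaB pathway genes tested, 3 rose and 5 fell, beside 7.34% and 14.5% of all genes. Their median change was -0.31, against -0.21 over all genes. Tlr2, a receptor for bacterial lipoproteins, rose by 2.57 ± 0.12 and was highest in M3 (2503 and 2536) and M2 (2276 and 1881). Il1r1, the interleukin-1 receptor, rose by 1.90 ± 0.16, while Tlr3, a receptor for double-stranded RNA, fell by 2.73 ± 0.14 and Traf6, an adaptor ligase, by 1.28 ± 0.14 (-0.87 and not called after quantile normalization). Il1r1 was not called with the larger pseudocount (0.89) or with values below 64 set to 64 (0.86), and on line means none of Il1r1 (adjusted p = 0.165), Tlr2 (0.106) and Traf6 (0.0812) was called. Nfkbia, the inhibitor induced by NF-kappaB itself, had a mean signal of 6024 in E and from 6350 to 8329 in M lines and was not called (0.36 ± 0.07). Tlr4 was also called higher (1.14), and Tnfaip3 (-1.22), Il1rap (-1.25) and Ikbkb (-1.07) lower. These 4 were named after their values were seen. By line, Tlr4 was called in M2 and M3 only, Tnfaip3 in M1 and M4, Il1rap in M1 and M3, and Ikbkb in M3 and M4. Il1r1 was not called in M3 (0.95), nor Traf6 in M2 (-0.89). Of 16 interferon signalling genes, 1 rose and 3 fell, about the shares of all genes (7.34% and 14.5%). Their median was -0.38, against -0.21 over all genes. Irf9 (-2.35 ± 0.14), Irf7 (-1.98 ± 0.15) and Irf3 (-1.23 ± 0.13), transcription factors of the response, fell, and Socs1, a feedback inhibitor, rose by 1.14 ± 0.15. Socs1 was not called with the larger pseudocount (0.53), with values below 64 set to 64 (0.49) or on line means (adjusted p = 0.114), and Irf7 changed by -1.15 with the larger pseudocount. Irf3 was not called after quantile normalization (-0.83) or on line means (adjusted p = 0.11).

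Several members are neighbours on the mouse map, and RefSeq's gene order (GRCm38.p6) was used to set them beside the genes next to them. Ccl2 and Ccl7 are adjacent on chromosome 11, followed by Ccl11, Ccl12, Ccl8 and Ccl1. The changes along this run were 4.33 for Ccl2, 5.54 for Ccl7, 0.47 for Ccl11 (not called), 1.66 for Ccl8 and 0.02 for Ccl1 (not called); Ccl12 did not pass the filter on low values. Ccl11 changed by 2.01 in M4, the line in which Ccl8 was also highest. Ccl5 and Ccl9 are adjacent in another run on that chromosome, with Ccl3 (0.17) and Ccl4 (-0.06) beyond them. The pair had different orders across the lines: E and M1 were highest for Ccl5, and M1 and M4 for Ccl9. On chromosome 5, Cxcl1 lies in a run from Cxcl5 to Cxcl2 in which neighbours changed by 3.61 (Cxcl5), 1.12 (Ppbp), -1.28 (Pf4), 0.25 (Cxcl3), -0.04 (Cxcl15), 0.57 (Cxcl1) and -0.70 (Cxcl2). Cxcl9 (-0.19, not called) and Cxcl10, with 1 gene between them, lie farther along that chromosome. Cxcl11, a pseudogene in RefSeq, was not ranked in the order of protein-coding genes used here.

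**Figure D5:**
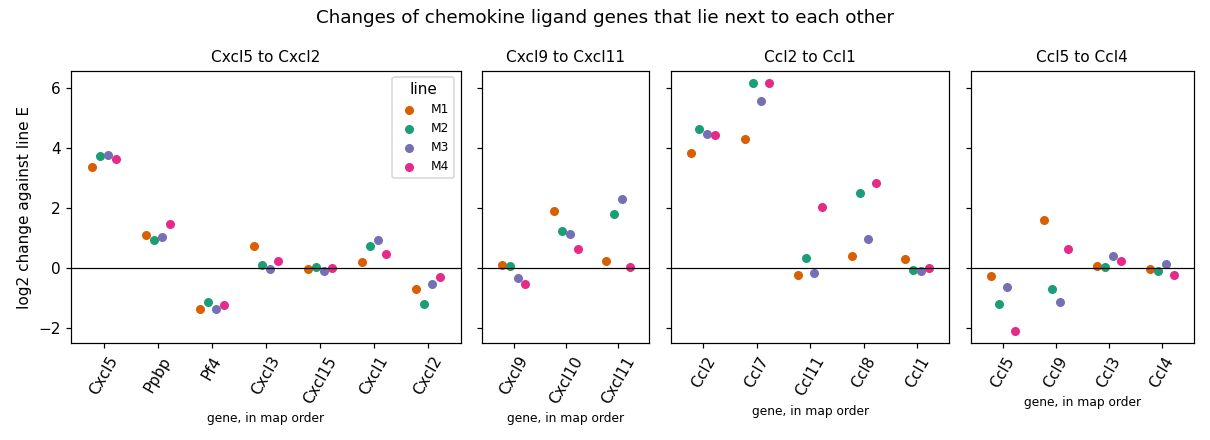
Log2 change against E of chemokine ligand genes in 4 groups of genes in map order (Cxcl11 placed by its RefSeq start), 1 point per M line. Ccl2 and Ccl7 are high in all 4 lines while Ccl1 in the same run is near 0, and the Cxcl5 run mixes genes with changes from 3.61 to -1.28 in the mean contrast.

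The genes whose signals followed each member most closely over the 10 arrays were found by Pearson correlation, among genes with a range of line means of at least 2-fold. Arrays of a line share their source, so these values describe 5 lines more than 10 independent points. For Ccl2 they were Dcn (r = 0.998), Duoxa1 (0.996) and Ctsl (0.996), and for Ccl7 Sqor (0.994), Dram1 (0.991) and Slpi (0.991). For Cxcl16 they were Tlr2 (0.991), Mfsd4b4 (0.984) and Acaa2 (0.981), and for Cxcl12 Gpr149 (0.990), Snai1 (0.988) and Pop1 (0.983). Ccl20, with its high signals in E and M3, was followed by Mgam (0.987), Elmo1 (0.976) and Acox2 (0.974). Mgam had mean signals of 644 in E, 459 in M3 and 58.9 to 78.4 in the other lines. For Ccl5 they were Spata13 (0.992), Spire1 (0.989) and Tmem98 (0.988), for Cxcl10 Myo5a (0.991), Mid1ip1 (0.990) and Mapk12 (0.985), for Cxcl1 Tpp1 (0.989), Crebrf (0.982) and Creg1 (0.979), and for Ccl9, with the loosest match, Tln2 (0.966), Bak1 (0.964) and Rtn2 (0.958).

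Chemokines are also made by leukocytes, endothelium and stromal fibroblasts, so markers of these cells were read beside the members. In bulk RNA, fewer cells of a type and less RNA per cell cannot be told apart. Of 18 leukocyte symbols, 16 had a probe set; their summed signal was 8331 to 8350 on the E arrays and 825 to 1065 on the M arrays, and Cd14 alone read 7956 in E. Of the 13 tested, Cd14 fell and the other 12 were not called in the mean contrast; Lyz2 (1.19) and Cd74 (1.04), named after their values were seen, were called higher in M3. The defining marker Ptprc read 1.4 to 17.6 over all arrays, Itgam 0.9 to 11.7 and Tyrobp 0.7 to 20.2. Not every marker was this low: Cd68 read 55.8 to 144.6, Csf1r 60.4 to 106.7, Lyz2 32.5 to 127.4 and Cd74 33.1 to 143.6. Cd68 had means of 57 in E, 131 in M3 and 133 in M4, a mean change of 0.66 ± 0.14, below the 2-fold limit. The 6 endothelial markers summed to 36.1 to 72.2 in E and 40.9 to 72.5 in M1, M3 and M4, and were highest in M2, where the sum was 99 or more and Cdh5 (1.09, named after its value was seen) was called higher. The 7 fibroblast markers summed to 70.1 to 113 in E but 6599 to 14666 on M arrays, and 5 of the 6 tested rose, namely Dcn (7.32 ± 0.10), Pdgfra (4.37), Pdgfrb (4.39), Col1a1 (4.08) and Lum (1.09, named after its value was seen). Thy1, also tested, was not called (-0.06). Over all genes, 7.34% rose and 14.5% fell. In the mean contrast, most fibroblast markers thus rose together with Ccl2, Ccl7, Cxcl12 and Cxcl16. Among the M lines the order of the marker sum differed from those of Cxcl12 and Cxcl16. The sum was lowest in M1 (6599 to 6866), where Cxcl12 was highest, and highest in M4 (14225 to 14666), where Cxcl16 was lowest. Much of the sum was Dcn, with mean signals of 4252 in M1 and 8618 in M4. Like the sum, Ccl2 and Ccl7 were lowest in M1. The part of these markers in the result was not tested. Among the 4 M lines, Col1a1, a fibroblast collagen gene, had its highest mean signal in M1 (1236) and its lowest in M3 (79.1), as did Cxcl12. Its means were 699 in M2 and 1178 in M4. Pdgfra was also lowest in M3 (758), but Dcn and Pdgfrb (390) were lowest in M1. Lum, a proteoglycan gene, was high in M4 alone (1311, against 9.1 to 14.8).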

How the data were processed

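Biotin-labelled cRNA from 5 cell lines was read on 10 one-colour arrays. The deposited values are probe set intensity on a linear scale; GCOS 1.3 was used, per the submitters' processing notes, with the signal algorithm, scaling and background not given in the sources used here. Symbols came from GEO's platform annotation: 34945 probe sets had 1 symbol, 932 several and 9160 none, and 64 controls were left out. The deposited scaling was kept, a pseudocount of 32 added and log2 taken. Probe sets exceeding the 40th percentile of an array on 2 or more arrays were kept, and the one with the highest mean signal stood for its gene, which left 14840 genes. One mean per line was fitted in limma 3.58.1 (R 4.3.3; lmFit, eBayes with trend), with 5 residual degrees of freedom. Further probe sets of a member were tested over 27422 probe sets. The fit was checked on simulated data. Alternatives changed the pseudocount, floor, scaling, filter, probe set rule, replicate block and the arrays or lines included. Precision is limited by the number of arrays. Members, lists and tests were chosen with earlier results of these data known. By rule, the text names the members, up to 4 called genes with the largest mean change from each list, the 3 genes most correlated with each member, and Epcam, Cdh1 (-5.86), Vim and S100a4.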

Additional observations from a re-analysis of the deposited data

Results flagged for a closer look

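For 7 ligands the change against E differed among the M lines by the moderated F test, with a range between the highest and lowest M line of at least 2-fold. The ranges of log2 change were 4.03 for Ccl20 (adjusted p = 1.67e-26), 3.48 for Cxcl12 (9.28e-21), 2.73 for Ccl9 (1.26e-18), 2.39 for Cxcl16 (1.35e-17), 1.86 for Ccl7 (3.89e-17), 1.82 for Ccl5 (2.7e-12) and 1.29 for Cxcl10 (4.79e-07). Beside them, 22.4% of all genes met the same limits. The line that stood apart was M3 for Ccl20 and M1 for Ccl7. For Cxcl12, M1 stood apart at the top, and M2 (by 1.59) and M4 (by 1.45) were called above M3. For Ccl5 the lines were graded, with M4 the lowest, and the step between M2 and M4 (0.88) was not called. The range of Cxcl10 was below the 2-fold limit with the larger pseudocount (0.89), quantile normalization (0.96) and hybridization scaling (0.95).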

How the results depend on the processing

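The calls of Ccl2 and Ccl7 in the mean contrast held under all 26 alternatives. The mean change of Ccl9, never called, was -0.031 with the pseudocount of 8, -0.402 without line M1 and -0.072 without line M4, where the weight of the lines differs by construction. With a pseudocount 4 times larger, ligands called lower were 1 in the mean contrast, 1 in M2 and 0 in M3, those higher were 3 in M2 and 2 in M4, and 2081 genes were called in all, against 3237. Ligands lower in the mean contrast numbered 1 with quantile normalization, median centring, scaling to the hybridization controls and without line M4. Those lower in M2 numbered 1 with quantile normalization and hybridization scaling, and those lower in M3 0 with all 3 scalings and with values below 64 set to 64. Under each of these scalings, ligands called higher were 5 in M3 and 6 in M4, against 4 and 4. The fit to 5 line means, which has fewer residual degrees of freedom, called 2 ligands higher, 0 lower (at an unadjusted p under 0.05, Ccl20, 0.0402) and 1572 genes.

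Leaving out 1 array at a time, with the lone array assumed to vary like the other lines, the ligands called higher and lower were 5 to 5 and 1 to 2 in the mean contrast (1 without E replicate 1), 6 to 6 and 1 to 1 in M1, 4 to 5 and 1 to 2 in M2 (1 without M2 replicate 2), 3 to 5 and 0 to 1 in M3 (0 without M3 replicate 1), and 4 to 4 and 2 to 2 in M4. The F test called 7 to 7, pairs of M lines 22 to 23, and all genes 2913 to 3365. Arrays with the same replicate number did not deviate together gene by gene (correlations of -0.07 to 0.06 over 10 pairs of lines). Such correlations do not see a shift shared by a whole array, so they cannot decide whether the numbers pair the samples. With a replicate block the counts were the same, 5 higher and 2 lower. Of the single-gene values, 1696 kept direction and side of the threshold, 63 lost a call, 13 gained one and 3 reversed.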
